A study of Macaca mulatta with 24 samples.

Results

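Genes of iron storage, uptake, export and sensing were followed in the whole blood of rhesus macaques after total body irradiation. The members were 10 genes fixed by name, namely FTL, FTH1, TFRC, SLC40A1, SLC11A1, SLC11A2, HMOX1, ACO1, IREB2 and STEAP3, and every non-control probe that the scanner output gave one of these names was taken. This found 15 of the 43603 probes of the array, for 9 of the 10 genes, among 15045 gene symbols in all, since no probe was named IREB2. Of these, 8 genes were tested, and STEAP3 was too dim for a test.

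The blood came from animals of 1 species, Macaca mulatta, sampled before exposure (7 arrays, 4 male and 3 female), at day 3 (4 arrays, 3 male and 1 female), at day 5 (6 arrays, 4 male and 2 female) and at day 7 (7 arrays, 4 male and 3 female) after 4 Gy to the whole body; age is not given in the labels, and irradiated arrays differ from the controls by exposure and by time alike. RNA was stabilised at the draw, globin transcripts were depleted, and 1-colour Agilent arrays with probes of 60 bases were hybridised. The labels call the beam X-rays and place the controls at day 0, whereas the methods describe gamma rays and a draw in the days before exposure. Equal replicate numbers were taken to mark the same animal, which was inferred from correlations between arrays. On that reading the controls are the animals' own earlier samples. No unexposed animal was followed in parallel on these arrays.

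Iron is taken up into most cells through the transferrin receptor, kept in the cytosol inside a shell of ferritin light and heavy chains, and released through ferroportin, the only known iron exporter of mammalian cells. The balance is set mainly after transcription. When iron is scarce, the iron regulatory proteins bind a short stem and loop, the iron-responsive element, which blocks translation of ferritin and ferroportin mRNA and stabilises transferrin receptor mRNA, so a change in mRNA level is not a change in protein. In blood, red cell precursors and reticulocytes take up the most iron, and monocytes and macrophages recycle it from engulfed red cells.

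The scanned arrays fall into 2 scan sessions. Session 1 holds 6 control and 6 day 7 arrays, while session 2 holds the control and the day 7 array of animal 5 and every day 3 and day 5 array. A contrast of day 3 or day 5 with the controls therefore rests within a session on 1 control array, and the values of members with the session as a term are given beside their results. Between 48.3 and 61.1% of probes were well above background on an array. The 14 probes of the 8 tested members were well above background on all 24 arrays, and none of the members' spots was flagged as saturated.

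Cell markers of blood moved over the same days. Of 13 tested markers of erythroid cells and reticulocytes, 9, 11 and 10 fell on the successive days. Their mean log2 signal per array lay between 11.88 and 13.31 in the controls and, in the order of the days, between 9.56 and 10.96, 7.74 and 8.96, and 7.44 and 11.27. All 6 tested B cell markers fell on each day. Of 8 monocyte markers 3, 3 and 1 rose, of 6 neutrophil markers 3, 3 and 1, of 6 markers of tissue macrophages 2, 1 and 0, and of 7 platelet markers 7, 2 and 0, while 1, 1 and 0 of 7 T cell markers fell. With the scan session as a term, these calls kept their direction, but 0, 7 and 10 of the erythroid and 2, 5 and 6 of the B cell calls passed the threshold, and of the monocyte, neutrophil, tissue macrophage, platelet and T cell calls 0 did at days 3 and 5. A bulk sample of this kind cannot tell fewer cells of a type from less RNA per cell, nor more cells from more RNA per cell. The arrays were normalized to a common level, so a rise or fall is relative to the other RNA of the sample. It does not give an amount per volume of blood.

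Of the 15 probes, 5 are shown here, with SLC11A1 printed beside SLC11A2 as the other member of its family. The FTH1 result at day 3 and the SLC11A2 results differ between probes, whereas both FTL probes were called lower on each day. Not shown are the brightest probes of FTL, FTH1 and SLC11A2, from which these genes were read. The SLC11A2 probes called on no day are not shown either. Each of the 5 probes shown reads through in at least 1 forward frame without a stop codon, as do some of the others. Positions are those of the scanner output on the rheMac2 build, and each sequence reads 5′ to 3′. An FTL probe spans chr19:55248155-55248375 on the plus strand, 221 bases of genome for 60 bases of probe, so it crosses a splice junction. The FTH1 probes lie at chr14:12067455-12067514 and chr14:12067546-12067605 on the plus strand. The SLC11A2 probe spans chr11:48129395-48131816 on the minus strand and also crosses a junction, and the SLC11A1 probe lies at chr12:82230354-82230413 on the plus strand. No annotation of that build was used here to place the other probes in an exon or an untranslated region.
FTL A_01_P1830651: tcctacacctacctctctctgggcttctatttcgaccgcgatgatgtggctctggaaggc
FTH1 A_01_P1826246: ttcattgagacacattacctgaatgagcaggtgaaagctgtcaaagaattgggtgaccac
FTH1 A_01_P1684311: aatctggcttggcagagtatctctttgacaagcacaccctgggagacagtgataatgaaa
SLC11A2 A_01_P1732531: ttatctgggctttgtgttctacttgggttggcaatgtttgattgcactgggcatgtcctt
SLC11A1 A_01_P1678056: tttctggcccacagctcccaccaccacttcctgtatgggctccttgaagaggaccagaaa
The longest run of bases shared between an FTL and an FTH1 probe was 6 bases. Both ferritin chains have many processed gene copies in primates, and whether a copy contributed signal was not tested.

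Each day was compared with the controls by limma on normalized log2 signal over the 27112 probes tested, each gene being read from its brightest probe over all 24 arrays, and a change was called where the p adjusted by Benjamini-Hochberg lay under 0.005. At day 3, 5 of the 8 members were called, with SLC40A1, SLC11A1 and SLC11A2 higher and FTL and ACO1 lower, where 13.6% of all named genes tested were called, 5.97% higher and 7.6% lower. At day 5, 4 of 8 were called, with SLC40A1, SLC11A1 and SLC11A2 higher and FTL lower (15.4% of all genes, 6.24% higher and 9.13% lower). At day 7, 2 of 8 were called, with FTL lower and SLC11A2 higher (9.87% of all genes, 2.68% higher and 7.2% lower). With animal number as a block these counts were 0, 3 and 1. With the probe that is brightest in the controls, a choice added after the values were seen that differs for SLC11A2 alone, they were 4, 3 and 1. The 3 comparisons share the 7 control arrays. The median log2 change of the 8 members was 0.30, -0.09 and 0.11 on the successive days, beside a median over all genes of 0.00, 0.00 and -0.01.

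Groups did not overlap for the same 5 members at day 3 (21.2% of all genes), for FTL, ACO1, SLC40A1 and SLC11A2 at day 5 (13.4%) and for FTL and SLC11A2 at day 7 (8.07%).

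**Figure D1:**
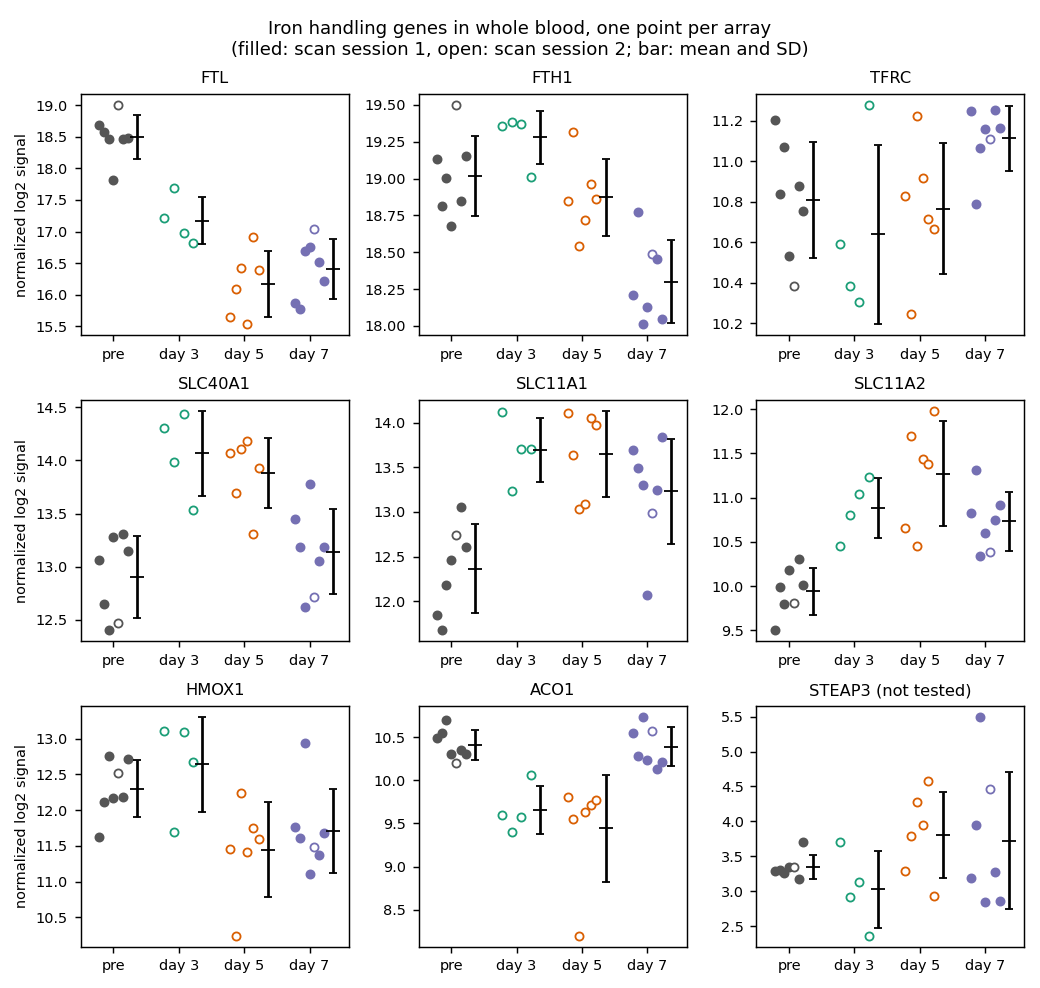
Normalized log2 signal of the brightest probe of each member, 1 point per array, in the controls (pre) and at days 3, 5 and 7; filled points are scan session 1, open points session 2, and the bar beside each group is its mean and SD. FTL sits between 17.82 and 19.00 in the controls and at 17.68 or below on every later array, while STEAP3 lies between 2.36 and 5.50 throughout.

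FTL, the light chain of ferritin, which helps to lay down the iron core, was the member that fell, on every day and in every animal. Its normalized log2 signal ran from 17.82 to 19.00 in the controls with a median of 18.48. At day 3 the 4 arrays read 17.21, 17.68, 16.98 and 16.82. None of these reached the lowest control. At day 5 the arrays ran from 15.54 to 16.92 with a median of 16.24, and at day 7 from 15.77 to 17.05 with a median of 16.52. All of them lay below all controls and all but 1 of each group below the lowest day 3 array.

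The fall was 2.50-fold at day 3 (log2 change -1.32 ± 0.23 (SE), limma adjusted p = 0.00146), 5.03-fold at day 5 (-2.33 ± 0.24, adjusted p = 1.01e-05) and 4.25-fold at day 7 (-2.09 ± 0.22, adjusted p = 1.93e-05). FTL was lower than in the same animal before exposure in 4 of 4, 6 of 6 and 7 of 7 animals, by 0.84 to 1.66 on the log2 scale at day 3 and by 1.54 to 3.04 at day 5. The probe across the splice junction, printed above, gave -1.24, -2.45 and -2.62, called on each day as well. The day 3 call was lost with animal number as a block (adjusted p = 0.0128), with scan session as a term (-1.82, adjusted p = 0.0318), with slide as a term (-2.10, adjusted p = 0.0442), with normexp background correction (-1.33, adjusted p = 0.123), and without animal 1 (adjusted p = 0.00974) or animal 7 (adjusted p = 0.00944). The day 7 call was lost with normexp background correction (-1.93, adjusted p = 0.00863). The day 5 call held with the session term (-2.83, adjusted p = 0.00289), and the day 7 change within session 1 alone was -2.11 (adjusted p = 7.43e-05).

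The decline of FTL went along with that of the erythroid markers, and their part in it was not tested. On both FTL and the mean of the erythroid markers, every control array lay above every later array. The day 7 array of animal 4, at 11.27 on the erythroid mean, was above all day 3 arrays. All 13 tested erythroid markers were well above background on every control array, 10 of them were so on all day 5 arrays, and SLC4A1, the anion exchanger of the red cell membrane, was well above background on none of these.

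FTH1, the heavy chain, which carries the ferroxidase site of ferritin, was not called on any day. In the controls it ran from 18.68 to 19.50 with a median of 19.01. At day 3 it read 19.36, 19.38, 19.37 and 19.01, within the range of the controls. At day 5 it ran from 18.54 to 19.31 (median 18.85) and at day 7 from 18.01 to 18.77 (median 18.21), where 6 of 7 arrays lay below all controls. In each group the array with the lowest median signal over all probes read highest, at 19.50, 19.38, 19.31 and 18.77. The array with the highest median signal read lowest in the controls (18.68), at day 3 (19.01) and at day 5 (18.54), but not at day 7. Whether this bright probe follows the amount of its RNA in proportion was not tested.

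The log2 change of FTH1 was 0.26 ± 0.18 at day 3 (adjusted p = 0.263), -0.14 ± 0.16 at day 5 (adjusted p = 0.528) and -0.72 ± 0.17 at day 7 (limma adjusted p = 0.00542). The day 7 value lay just outside the threshold and was called with scan session as a term (adjusted p = 0.00398), while it was -0.21 with quantile normalization (adjusted p = 0.213), -0.44 with no filter on dim probes (adjusted p = 0.119) and not called with animal number as a block (adjusted p = 0.0161). All 7 animals were lower than before exposure, by 0.04 to 1.11. With the session term the day 3 and day 5 values were -0.22 (adjusted p = 0.71) and -0.62 (adjusted p = 0.226). Its 3 probes kept a common course but not a common level of change. They lie within 276 bases of genome, and at day 3 the change grew from 0.26 at the last one to 0.55 at the middle one and 0.93 at the first, which was called higher (adjusted p = 0.00251). Their mean signal in the controls fell in the same order, from 19.02 to 17.60 and 17.19, so position and brightness cannot be told apart. At day 7 all 3 were below the controls, by 0.72, 0.45 and 0.60. Between 95% limits, the brightest probe allows at day 3 a change from -0.12 to 0.65, above the whole interval of FTL, which ran from -1.82 to -0.82; a test between the genes was not made.

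**Figure D2:**
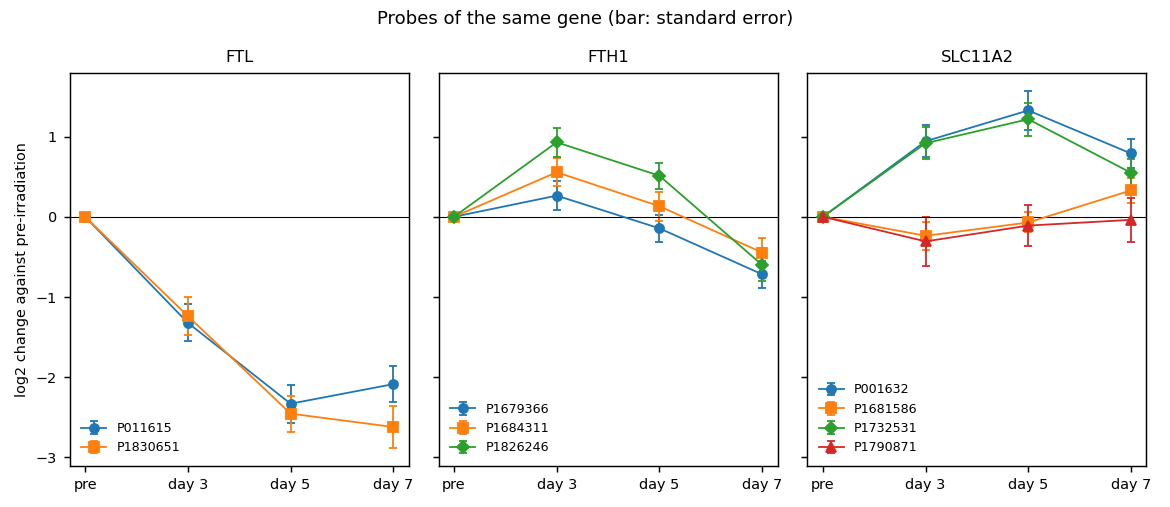
Log2 change against the controls for each probe of FTL, FTH1 and SLC11A2 at days 3, 5 and 7, with the standard error as a bar and the controls set at 0. Both FTL probes fell together, the 3 FTH1 probes spread from 0.26 to 0.93 at day 3, and the SLC11A2 probes split into a pair above 0.9 and a pair below 0 at day 3.

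TFRC, the receptor that carries transferrin-bound iron into the cell, was not called on any day. Its log2 signal ran from 10.39 to 11.21 in the controls (median 10.84). At day 3 it read 10.59, 10.38, 10.30 and 11.28, and it ran from 10.25 to 11.23 at day 5 (median 10.77) and from 10.79 to 11.25 at day 7 (median 11.16). All groups overlapped, and the day 7 arrays were the closest together, with an SD of 0.16 against 0.29 in the controls.

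The log2 change of TFRC was -0.17 (95% interval -0.65 to 0.31), -0.04 (-0.43 to 0.34) and 0.30 (-0.02 to 0.62) at days 3, 5 and 7, with adjusted p of 0.570, 0.875 and 0.148 in limma. With the session term the day 3 and day 5 values turned to 0.25 (adjusted p = 0.761) and 0.38 (adjusted p = 0.547). TFRC was above its own earlier level in 1 of 4, 2 of 6 and 5 of 7 animals.

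TFR2, the second transferrin receptor, which senses transferrin in liver and in erythroid precursors, showed another course. It fell on each day, with log2 changes of -2.91, -4.43 and -3.99 (adjusted p = 0.000632, 3.69e-06 and 0.000537). It was well above background on all 7 control arrays, 4 of 4 at day 3, 3 of 6 at day 5 and 3 of 7 at day 7, so the size of the change at days 5 and 7 rests in part on arrays at background.

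STEAP3, the reductase that frees iron from the receptor pathway in the endosome and a known target of p53, could not be tested. Its probe was well above background on 0 of 7 control arrays, 0 of 4 at day 3, 1 of 6 at day 5 (animal 6) and 2 of 7 at day 7 (animals 3 and 5). The log2 signal there was 4.57, 5.50 and 4.46. Of 13 tested p53 target genes on the list, 9, 9 and 7 were called higher on the successive days, and 3, 3 and 6 of these with the session as a term.

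SLC40A1, ferroportin, rose at days 3 and 5 and lay near the controls at day 7. The controls ran from 12.40 to 13.31 with a median of 13.06. At day 3 the arrays read 14.30, 13.99, 14.43 and 13.54, and at day 5 they ran from 13.31 to 14.19 with a median of 14.00. Every one of them lay above all controls, at day 5 by as little as 0.002 for animal 6 against its own control. At day 7 the range was 12.62 to 13.78 (median 13.18), and 5 of the 7 arrays fell back among the controls.

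The rise was 2.24-fold at day 3 (log2 change 1.16 ± 0.24, adjusted p = 0.00372) and 1.97-fold at day 5 (0.98 ± 0.20, adjusted p = 0.00223), and the day 7 change was 0.24 ± 0.21 (adjusted p = 0.438). With animal number as a block both calls were lost (1.03, adjusted p = 0.0210, and 0.91, adjusted p = 0.0109). With scan session as a term the changes were larger but no longer called (1.59, adjusted p = 0.0643, and 1.41, adjusted p = 0.0443), whereas all 4 groups fitted at once with the session term kept both calls (adjusted p = 0.00356 and 0.00385). On the 12 arrays of session 2, the control of animal 5 read 12.47 and its day 7 array 12.72, and all 10 day 3 and day 5 arrays lay above both. With normexp background correction the day 5 value was 0.59 (adjusted p = 0.436). Leaving out 1 animal kept the day 3 call in 1 of 7 cases (lowest change 1.08) and the day 5 call in 2 of 7 (lowest change 0.85).

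Some monocyte and macrophage markers moved on the same days, and their part in the ferroportin signal was not tested. The mean log2 signal of the 8 monocyte markers lay between 10.59 and 11.37 in the controls, and between 11.91 and 12.45, 11.48 and 12.20, and 11.02 and 12.14 on the successive days. Of the tissue macrophage markers, C1QC, a chain of complement C1q, gave 3.35 at day 3 and 2.07 at day 5, both called, but not with the session term (adjusted p = 0.152 and 0.379). CD5L, a scavenger-type protein of macrophages, was called higher at day 3 (adjusted p = 0.00483) and gave 2.41 at day 5, not called. VSIG4 gave 0.23 and 0.17 and TIMD4 -1.68 and -0.93, none called, and MARCO and SPIC were well above background on no control array.

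SLC11A1, known as NRAMP1, a metal pump of the phagosome membrane in macrophages and neutrophils, rose at days 3 and 5. The controls ran from 11.68 to 13.06 (median 12.46). At day 3 the arrays read 14.12, 13.24, 13.71 and 13.70, all above the controls. At day 5 they ran from 13.04 to 14.10 (median 13.80), and 5 of 6 were above all controls. At day 7 they ran from 12.07 to 13.84 (median 13.30), with 5 of 7 above all controls and animal 4 down among the lower controls.

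The change was 2.51-fold at day 3 (log2 1.33 ± 0.27, adjusted p = 0.00355) and 2.43-fold at day 5 (1.28 ± 0.26, adjusted p = 0.00195), while the day 7 value of 0.87 ± 0.28 missed the threshold (adjusted p = 0.0307). The day 3 value with animal as a block was 1.55 (adjusted p = 0.00907). With the session term it was 0.95 at day 3 (adjusted p = 0.288) and 0.91 at day 5 (adjusted p = 0.324), neither called, and on session 2 all 10 day 3 and day 5 arrays lay above the 12.74 of the control of animal 5. Leaving out 1 animal kept the call in 2 of 7 cases at day 3 and 4 of 7 at day 5, and the lowest value of either day was 1.10. With normexp background correction the day 5 value was 0.75 and not called (adjusted p = 0.366). The mean of the 6 neutrophil markers lay between 10.95 and 12.17 in the controls, and between 12.21 and 13.70, 12.31 and 13.60, and 11.52 and 12.99 on the successive days. The part of these cells in the SLC11A1 signal was not tested.

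**Figure D3:**
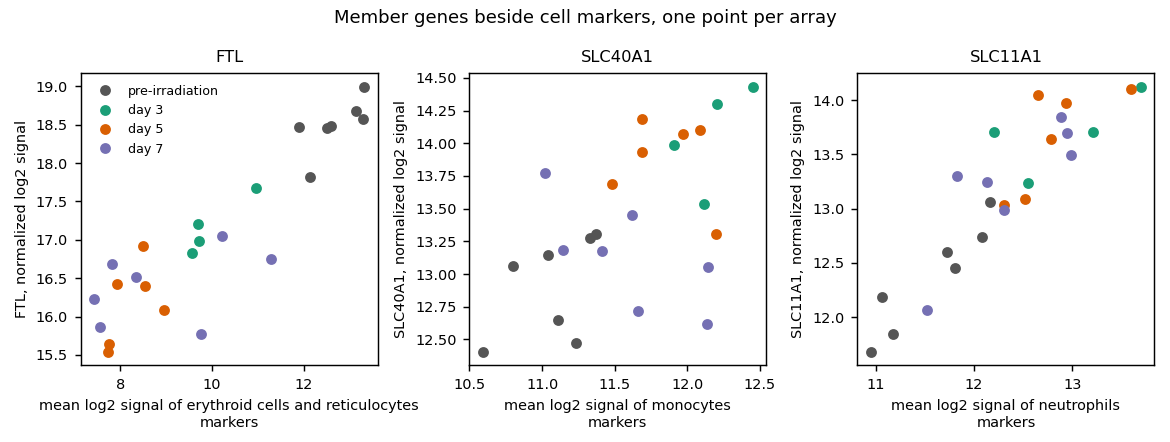
Normalized log2 signal of FTL, SLC40A1 and SLC11A1, each against the mean log2 signal of the tested markers of erythroid cells, monocytes and neutrophils, 1 point per array and coloured by group. The controls stand at the upper right for FTL, at 11.88 or more on the erythroid axis, and at the lower left for SLC40A1 and SLC11A1.

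SLC11A2, known as DMT1, the proton-coupled importer that moves ferrous iron out of the endosome after transferrin uptake, was the member whose probes disagreed. Its brightest probe over all arrays, with a mean of 9.94 in the controls, owes that place to its level after exposure, since in the controls another probe was brighter, at 10.47, and that one was called on no day. The choice of probe therefore depends in part on the change that is tested. The probe used, at chr11:48127011-48127070, ran from 9.50 to 10.30 in the controls (median 9.99). At day 3 it read 10.45, 10.81, 11.05 and 11.24, at day 5 it ran from 10.46 to 11.98 (median 11.41) and at day 7 from 10.34 to 11.31 (median 10.75). No array after exposure reached down to the controls.

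In this probe the rise was 1.92-fold at day 3 (log2 0.94 ± 0.20, adjusted p = 0.00393), 2.51-fold at day 5 (1.33 ± 0.24, adjusted p = 0.000914) and 1.73-fold at day 7 (0.79 ± 0.18, adjusted p = 0.00438), higher than before exposure in 4 of 4, 6 of 6 and 7 of 7 animals. With animal as a block the values were 0.96 (adjusted p = 0.0143) at day 3 and 0.79 (adjusted p = 0.0105) at day 7, both no longer called. With the session term the day 3 and day 5 values were 1.08 (adjusted p = 0.120) and 1.46 (adjusted p = 0.0927), the day 5 value with normexp background correction was 0.78 (adjusted p = 0.290), and within session 1 the day 7 value was 0.82 (adjusted p = 0.00942). Leaving out 1 animal kept the call in 1 of 7 cases at day 3, 6 of 7 at day 5 and 0 of 7 at day 7, with the lowest changes at 0.84, 1.20 and 0.70.

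The probe across the junction printed above gave 0.92, 1.22 and 0.55, of which the day 5 value was called (adjusted p = 0.000578). The remaining pair, at chr11:48122366-48122425 and chr11:48121114-48121173, lies farther along the minus strand, that is, nearer the 3′ side of the gene in the direction of transcription. These gave -0.24, -0.07 and 0.33, and -0.31, -0.11 and -0.04 for the one brightest in the controls, none called, with adjusted p from 0.133 to 0.932. The upper 95% limits at day 5 were 0.20 and 0.43, below the lower limit of 0.81 of the brightest probe. SLC11A2 is known to be transcribed with alternative 3′ ends, with and without an iron-responsive element, and which form each probe reads is not given in the files. The probes were not tested against each other.

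HMOX1, heme oxygenase, which opens the heme ring and frees its iron, was not called on any day. The controls ran from 11.62 to 12.76 (median 12.19). At day 3 it read 13.10, 11.69, 13.09 and 12.67, and at day 5 it ran from 10.24 to 12.24 (median 11.52). At day 7 it ran from 11.11 to 12.94 (median 11.62), with animal 3 above all controls and 4 of 7 below all of them.

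The log2 change of HMOX1 was 0.34 ± 0.30, -0.85 ± 0.28 and -0.59 ± 0.26 (adjusted p = 0.390, 0.0303 and 0.104). With the session term the day 3 and day 5 values were 0.12 (adjusted p = 0.935) and -1.08 (adjusted p = 0.287). All 6 animals at day 5 were lower than before exposure, by 0.17 to 1.87. Of the 14 tested genes of heme uptake, breakdown and export, 1 was called higher on each day and 2, 2 and 3 lower. BLVRB, a biliverdin reductase abundant in red cells, fell on each day, with log2 changes of -2.08, -3.16 and -2.85, and so did SLC48A1, which brings heme out of the endolysosome, with -2.26, -2.75 and -2.77. FLVCR2, a transporter of the feline leukemia virus receptor family, rose by 1.91 and 1.23 at days 3 and 5, neither called with the session term (adjusted p = 0.0784 and 0.136), LRP1, the receptor for hemopexin-bound heme, rose by 1.61 at day 7, and HMOX2, the constitutive oxygenase, fell by 0.90 at day 7.

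ACO1, the cytosolic aconitase that turns into iron regulatory protein 1 when it loses its iron-sulfur cluster, fell at day 3 and lay below the controls at day 5 too. The controls ran from 10.20 to 10.70 (median 10.35). At day 3 it read 9.59, 9.40, 9.58 and 10.06, and at day 5 it ran from 8.20 to 9.80 (median 9.67). All 10 of these arrays lay below all controls. At day 7 it was back at 10.13 to 10.73 (median 10.29), above every day 3 and day 5 array.

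The log2 change was -0.76 ± 0.17 at day 3 (adjusted p = 0.00486, called just inside the threshold), -0.97 ± 0.24 at day 5 (adjusted p = 0.00609, just outside) and -0.02 ± 0.14 at day 7 (adjusted p = 0.919). The day 3 call was lost in 17 of 19 alternatives, among them animal as a block (-0.75, adjusted p = 0.0444), the session term (-0.54, adjusted p = 0.316), slide as a term (-0.38, adjusted p = 0.560) and the omission of any 1 of the 7 animals (adjusted p from 0.00518 to 0.0323). At day 5 the array of animal 3 read 8.20 and the next lowest 9.56, and without that animal the change was -0.67 and was called (adjusted p = 0.00268). On session 2 the control of animal 5 read 10.20 and its day 7 array 10.57, and the other 10 arrays lay below both. The second iron regulatory protein, IREB2, had no named probe.

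**Figure D4:**
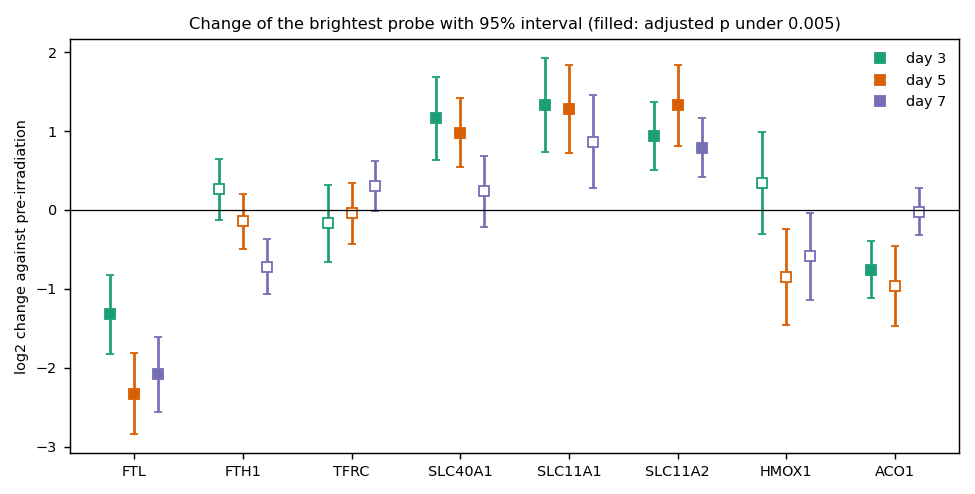
Log2 change of the brightest probe of the 8 tested members against the controls at days 3, 5 and 7, with 95% intervals; filled squares have an adjusted p under 0.005. FTL lies between -1.32 and -2.33, SLC40A1, SLC11A1 and SLC11A2 lie above 0.9 at days 3 and 5, and the TFRC intervals include 0 on each day.

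Compared with each other, the days after exposure gave no called member, by limma, in any of the 3 contrasts, where 0.0368% of all genes were called for day 5 against day 3, 1.63% for day 7 against day 3 and 0.00919% for day 7 against day 5. At an unadjusted p under 0.05 there were 3, 6 and 3 members of 8, beside 11.1, 34.3 and 21.1% of all genes. All 4 groups fitted at once without a session term gave 1, FTH1 at day 7 against day 3. FTH1 was 1.97-fold lower at day 7 than at day 3 (-0.98, adjusted p = 0.00903), with all 7 arrays below all 4, but the change was -0.18 with quantile normalization (adjusted p = 0.480) and, with the session in the fit of all groups, -0.65 (adjusted p = 0.175). Groups did not overlap for 2 of 8 members in that contrast, FTH1 and ACO1 (13.4% of all genes), for ACO1 alone at day 7 against day 5 (2.53%) and for 0 members at day 5 against day 3 (3.46%). ACO1 was higher at day 7 by 0.73 than at day 3 (adjusted p = 0.0271) and by 0.94 than at day 5 (adjusted p = 0.0546), and SLC40A1 was lower by 0.93 and 0.74 (adjusted p = 0.0320 and 0.0716). Since 6 of 7 day 7 arrays were scanned in session 1 and all day 3 and day 5 arrays in session 2, the session moves with this contrast. FTL was lower at day 5 than at day 3 by 1.01 (adjusted p = 0.228), and HMOX1 by 1.19 (adjusted p = 0.304).

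In the order of their group means, FTL read controls, day 3, day 7 and day 5, and its days 7 and 5 overlapped. FTH1 read day 3, controls, day 5 and day 7, with overlap at each step. SLC40A1, SLC11A1 and SLC11A2 had the controls lowest and day 7 next. Their days 3 and 5 overlapped throughout. ACO1 had day 5 lowest and then day 3, overlapping, and then day 7 and the controls, overlapping.

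In the 7 lists of other iron genes around the members, 14, 15 and 13 of 54 tested genes were called against the controls on the successive days (25.9, 27.8 and 24.1%, beside 13.6, 15.4 and 9.87% of all genes). With the session as a term, added after the data were seen, all kept their direction but 0, 7 and 13 passed the threshold, and in the fit of all 4 groups with the session 8, 10 and 13 did. Of the day 5 calls named here, those of TFR2, BLVRB, SLC48A1, ALAS2, GLRX5 and ISCA1 held with the session term and the others did not. Of 10 tested genes of intracellular iron handling, 0 were higher, and 3, 2 and 1 were lower on the successive days. NCOA4, the receptor that delivers ferritin to the lysosome, fell on each day, with log2 changes of -1.79, -2.14 and -2.44 (adjusted p = 0.000391, 7.24e-06 and 3.51e-05). CISD1, an iron-sulfur protein of the outer mitochondrial membrane, fell at days 3 and 5 (-1.53 and -0.83), and GLRX3, a cytosolic glutaredoxin, fell at day 3 (-0.90). Of 9 tested genes of systemic regulation and transport, TFR2 alone was called. Of the iron-binding proteins of neutrophil granules, LCN2, which captures bacterial siderophores, rose by 1.87 at day 5 and 3.05 at day 7, the day 5 value being 1.21 and not called with the session term (adjusted p = 0.440), and LTF, lactoferrin, was not called, at -1.33, -1.48 and -1.09.

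Other transcripts known to carry an iron-responsive element went different ways. ALAS2, the erythroid enzyme of the first step of heme synthesis, fell, with log2 changes of -3.63, -8.06 and -4.96 (adjusted p = 1.86e-05, 6.86e-09 and 0.00229), which at day 5 is 267-fold. EPAS1, a hypoxia-inducible factor, rose by 2.42 and 1.55 at days 3 and 5, and at day 7 its change was 0.70 (adjusted p = 0.149). With the session term the EPAS1 values at days 3 and 5 were 1.65 (adjusted p = 0.0715) and 0.78 (adjusted p = 0.284). CDC14A, a phosphatase, gave -0.70, -0.14 and 0.34, none called.

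Some genes of the routes that use the iron fell. Of 6 tested heme synthesis genes, 0 rose and 2, 3 and 3 fell, among them PPOX (-1.29, -1.72 and -1.48) on the successive days, and UROS (-1.96 and -1.62) at days 5 and 7. Of 9 tested genes of iron-sulfur cluster assembly, 0 rose and 3, 3 and 2 fell. GLRX5, a mitochondrial glutaredoxin, gave log2 changes of -4.37, -5.70 and -4.40, and ISCA1, a late assembly factor, -4.20, -6.12 and -5.18, with FDX1 at -0.89 at day 3 and ISCU, the scaffold, at -0.75 at day 5. The median log2 change of the erythroid markers was -3.06, -5.24 and -4.37 over the same days, and their part in these values was not tested.

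**Figure D5:**
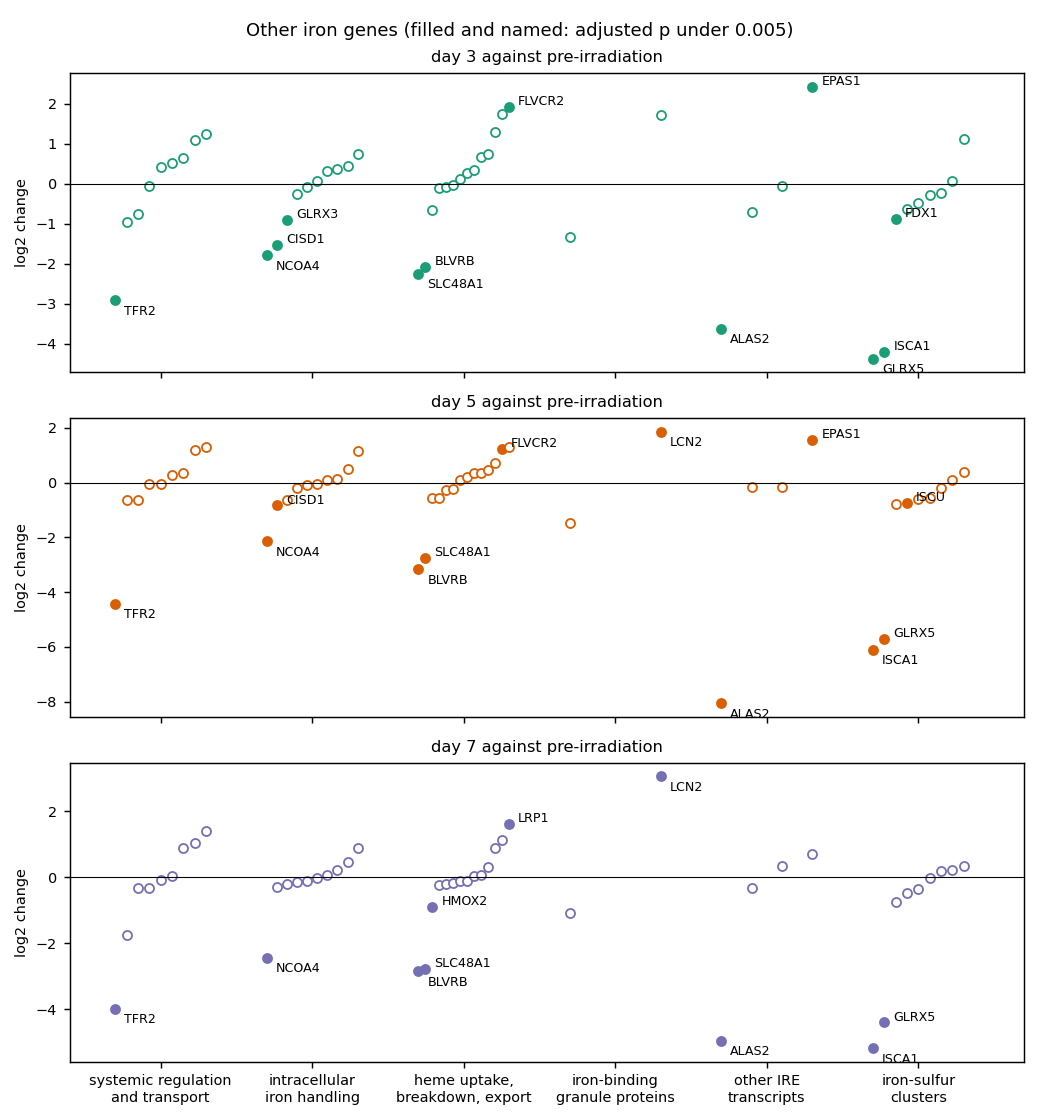
Log2 change against the controls at days 3, 5 and 7 for the tested genes of 6 lists around the members, 1 point per gene by its brightest probe; filled and named points have an adjusted p under 0.005. Most points lie near 0, and ALAS2, GLRX5, ISCA1 and TFR2 lie lowest on each day, with ALAS2 at -8.06 at day 5.

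No member passed the test for a difference between the sexes in the day 7 response (limma interaction, 0 of 8 members, 0 at an unadjusted p under 0.05, and 0 probes of the whole array at an adjusted p under 0.05, with 4 males and 3 females in each group). FTL changed by -2.11 in males and -2.05 in females, a difference of -0.06 ± 0.45, and the widest gap was that of HMOX1, at 0.65 ± 0.53 (adjusted p = 0.737).

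The genes whose pattern over the 24 arrays was most like that of a member are given as a description, with Pearson's r among 10652 genes and with arrays that share groups and sessions. FTL ran with JOSD2 and FAM212B (r = 0.947 and 0.945), and FTH1 with B2M, OAZ1 and NCF1 (0.943, 0.921 and 0.917). TFRC ran with KIF20B, SNRPA1 and ARV1 (0.847, 0.847 and 0.832), and SLC40A1 with TSPAN17, STN1 and CD274 (0.915, 0.914 and 0.902). SLC11A1 ran with ADGRE2, RGS14 and TLR1 (0.939, 0.927 and 0.926), and SLC11A2 with ACIN1, EP300 and MON2 (0.900, 0.888 and 0.879). HMOX1 had SMAD1, CSTB and BORCS6 (0.796, 0.790 and 0.75) and ACO1 had AASDH, NTAN1 and FTSJ1 (0.845, 0.816 and 0.791). Among the members themselves, FTL and FTH1 correlated at 0.44, FTL and SLC11A2 at -0.76, SLC40A1 and ACO1 at -0.74 and FTH1 and TFRC at -0.71.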

How the data were processed

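Whole blood RNA of 24 samples was hybridised to 1-colour Agilent rhesus arrays; the study's methods name a human design. The authors' scanner output, written by Agilent Feature Extraction 12.0.2.2 per the file headers (10.7 per the submitters' processing notes), gives the processed signal, an intensity with the local background subtracted. The authors' deposited series table has the same values on the log2 scale with an offset of its own for each array, in 18497 rows that could be matched to probes, some cells being empty (r of at least 0.99998 with the scanner values).

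Here log2 of the processed signal was used without the spots that the scanner software had marked as outliers. The arrays were normalized to the array of middle brightness among all 24, a control, by subtracting a median difference, which amounted to between -2.03 and 0.87. Of 43603 probes, 23052 carried a name, 898 were named through RefSeq accessions and 19653 had none. Probes had to stand well above background on 4 or more of the 24 arrays, which left 27112 probes and 10878 named genes. Each contrast was fitted on its 2 groups with limma 3.58.1 and statmod 1.5.0 in R 4.3.3, two-sided, with Benjamini-Hochberg adjustment; tables and plots were made with Python 3.11.15, pandas 2.3.3, numpy 2.4.6 and, for the drawing, matplotlib 3.10.9. The fit was tested on simulated data. Intervals are 95% intervals, and precision is limited by how many arrays there were. Equal replicate numbers were taken as 1 animal, since the deviations of same-numbered arrays from their group means correlated in every pair (r from 0.13 to 0.65). Same-numbered control and day 7 arrays also share a slide.

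The members and all gene lists were chosen with earlier results of these data known. Named from a list were its 3 changed genes of largest change on each day, every gene with an iron-responsive element, and all members. Some genes that this rule takes are not reported here. Alternatives covered the normalization, background, filter, spots, batch terms, animal block, probe and each animal left out.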

Additional observations from a re-analysis of the deposited data

Results flagged for a closer look

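In 5 of 36 member groups examined, 1 array stood far from the others by Dixon's ratio, which chance alone gives in about 1 of 20 groups. At day 3, FTH1 in animal 7 was lowest at 19.01, where the next array read 19.36. At day 5, ACO1 in animal 3 was lowest at 8.20 against 9.56 for the next. At day 7, TFRC in animal 2 was lowest at 10.79 against 11.07, and HMOX1 in animal 3 was highest at 12.94 against 11.77. STEAP3 in animal 7 before exposure, at 3.71 against 3.34, was not well above background on any control array.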

How the results depend on the processing

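Over the 11 called changes of members, 126 of 223 alternatives kept direction and call, 92 kept the direction alone and 5 reversed it, all 5 in other probes of SLC11A2 (-0.24 and -0.071 at days 3 and 5 in 1 probe, and -0.31, -0.11 and -0.038 at days 3, 5 and 7 in another). FTL at day 5 was called under all 20 of its alternatives. The causes were not tested.

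The 5, 4 and 2 members called at days 3, 5 and 7 against the controls became 0, 1 and 0 with normexp background correction and 3, 4 and 1 with the deposited table, which held no TFRC row. They were 3, 4 and 2 with no filter on dim probes, which moved the median of all genes by 0.16, 0.29 and 0.26 (the deposited table by 0.14 and 0.10 at days 3 and 5). All 4 groups in 1 fit gave 3, 5 and 2, and 1 at day 7 against day 3. With the replicate block, which pairs the arrays of an animal, the counts were 0, 3 and 1, and the block changed no other call than those printed beside the results. With scan session as a block they were 0, 1 and 3, with slide as a block 0 at day 3 and 1 at day 7, and within scan session 1 they were 1 at day 7. The session as a block in all 4 groups, added after the data were seen, gave 2, 3 and 2, and session could not be fitted between days 5 and 3. With the probe that is brightest in the controls they were 4, 3 and 1. Without 1 animal the counts ran from 0 to 4, from 1 to 4 and from 1 to 2.

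Of the 37 member changes not called, alternatives were set out for 25, namely all those against the controls and those between days with an unadjusted p under 0.05, and 8 of their 491 alternatives gave a call and 23 turned the sign without one. For ACO1 at day 7 these were 0.025 (quantile), 0.13 (normexp), 0.25 (no filter) and a range from -0.090 to 0.015 without 1 animal. For FTH1 they were -0.028 (quantile), -0.22 (session), -0.31 (slide) and -0.069 (session, all groups) at day 3, 0.15 (no filter), 0.13 and 0.51 (other probes) at day 5, and 0.020 (normexp) at day 7 against day 5. FTL at day 7 against day 3 gave 0.15 with slide. For TFRC they were 0.41 (slide), 0.25 (session) and 0.043 (session, all groups) at day 3, and 0.016 (quantile), 0.25 (no filter), 0.38 (session), 0.17 (session, all groups) and from -0.12 to 0.066 without 1 animal at day 5. The sex difference at day 7 turned for FTH1 (-0.20), SLC11A2 (-0.15) and SLC40A1 (-0.0075) with no filter.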
